A study of Mus musculus with 6 samples.

Results

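Glucose uptake, glycolysis, glycogen handling, glycerol phosphate cycling and the pentose phosphate pathway were described through 36 genes in whole brains of mouse embryos at E14.5. The genes were taken by symbol from a list chosen with earlier results of these data known. All 36 were found among the 52459 symbols of the count table. They comprised 22 genes of glucose uptake and glycolysis, 5 of glycogen handling, 3 glycerol phosphate dehydrogenases and 6 of the pentose phosphate pathway. All embryos were C57BL/6. The groups were 3 libraries from Mfsd7c-/- knockout brains and 3 libraries from wild-type brains, with no other treatment or allele on the labels. Neither the deleted part of Mfsd7c nor the litters are stated, nor whether a library came from 1 embryo. The p-values weigh the group difference against the spread of libraries within groups, which may not be the spread between embryos or litters. Mfsd7c, a membrane transporter whose current symbol is Flvcr2, was at 119, 129 and 130 counts in knockout replicates 1, 2 and 3. It was at 206, 291 and 259 counts in wild-type replicates 1, 2 and 3, so it was lower in every knockout library.

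Glycolysis splits glucose into pyruvate through a chain of cytosolic enzymes, and several of its steps are run by isozymes encoded by separate genes. The fetal brain takes up glucose largely through Slc2a1 and Slc2a3. Glycogen is a glucose store built by a synthase and a branching enzyme and broken down by phosphorylases. The pentose phosphate pathway leaves glycolysis at glucose 6-phosphate and yields NADPH and ribose. Many glycolytic genes are known targets of the hypoxia-inducible transcription factors.

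Libraries held 43784619 to 50549673 counts. All 9 neuron markers and all 7 radial glia markers were detected, with summed neuron marker levels of 6819 to 7591 CPM in knockout and 6811 to 8005 CPM in wild-type libraries. CPM is the depth-scaled count of a gene, computed on TMM-scaled library sizes. Some libraries stood apart. Epidermal keratinocyte markers, keratins among them, were high in knockout replicate 1 and wild-type replicate 1, at 516 and 435.5 summed CPM. Knockout replicate 3 lay between, at 95.6, against 24.2 to 34.4 in the remaining libraries. The fits without the libraries with high epidermal markers kept knockout replicate 3. Hindbrain and spinal cord Hox genes were high in wild-type replicates 2 and 3, at 136 and 32.6 summed CPM, against 0.572 to 3.11 in the others. Summed erythroid markers ran from 1793 to 3624 CPM in knockout and from 1172 to 2492 CPM in wild-type libraries. None of the 12 tested erythroid genes passed the threshold, but 11 had log2 fold changes above 0. Their median log2 fold change was 0.62, against -0.0099 over all genes tested. Gfi1b, 1 of the 13 genes in the table, was at 0 counts in all knockout libraries and 0 to 2 in wild-type. Summed endothelial markers ran from 474 to 518 CPM in knockout and from 341 to 407 CPM in wild-type. Of the 12 genes, 4 were higher (Pecam1, Flt1, Emcn and Cd34), 1 was lower (Cldn5) and 7 had no call. Among all genes tested, 0.624% were higher and 0.0358% lower. Summed skeletal muscle markers were lower in every knockout library, at 33.3 to 41.8 CPM, against 42.4 to 62.3 CPM in wild-type. Ryr1 alone held 20.8 to 22.4 CPM of the sum in knockout and 19.5 to 28.2 CPM in wild-type. The order of the sums thus leans in part on 1 gene. Only Myh8, 1 of the 10 tested, had every knockout value below every wild-type value, which 6.58% of all genes showed. All 10 tested muscle genes had log2 fold changes below 0, and none passed the threshold. Wild-type replicate 2 was the single library with Xist expression and 0 Y-linked counts. The part of these differences in the results below was not tested beyond the fits that left libraries out or added a sex term. A fit with the erythroid genes removed changed only the scaling and the set of genes tested. It cannot show how much red cell RNA is in the counts of other genes. In bulk tissue, a change in the number of cells of a type and a change in RNA per cell cannot be told apart.

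In knockout brains, 11 of the 22 glycolysis genes rose, and none of the 36 genes fell. The 11 were Hk2, Gpi1, Pfkl, Pfkfb3, Aldoa, Tpi1, Gapdh, Pgk1, Pgam1, Eno1 and Pkm, so that at least 1 gene rose for every step between hexokinase and pyruvate kinase. Their fold changes ran from 1.32 (Pkm) to 3.52 (Hk2). None of the 5 glycogen, 3 glycerol phosphate or 6 pentose phosphate genes passed the test. Over all 19565 genes tested, 0.624% were called higher and 0.0358% lower in knockout, 0.659% in all (edgeR quasi-likelihood test, false discovery rate of 0.05). The split of 122 higher and 7 lower genes depended on the libraries. It was 233 and 155 without wild-type replicate 1, and 265 and 194 without the libraries with high epidermal markers. The median log2 fold change was 0.52 over the 22 glycolysis genes, 0.20 over the glycogen genes, -0.0070 over the glycerol phosphate genes and -0.056 over the pentose phosphate genes, against -0.0099 over all genes tested. Every knockout value lay above every wild-type value for 15 of the 36 genes, which 7.84% of all genes showed. For 2 of the 36, Pfkfb4 and Pgls, every knockout value lay below, which 6.58% of all genes showed. Because the list was chosen with earlier results known, the shares over all genes give scale and are no test of the list. The glycolysis genes took 0.687% ± 0.0610 of all counts in knockout and 0.450% ± 0.00252 in wild-type libraries (SD, n = 3 each). The pentose phosphate genes took 0.0659% ± 0.00275 in knockout and 0.0670% ± 0.00150 in wild-type (SD, n = 3 each).

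**Figure D1:**
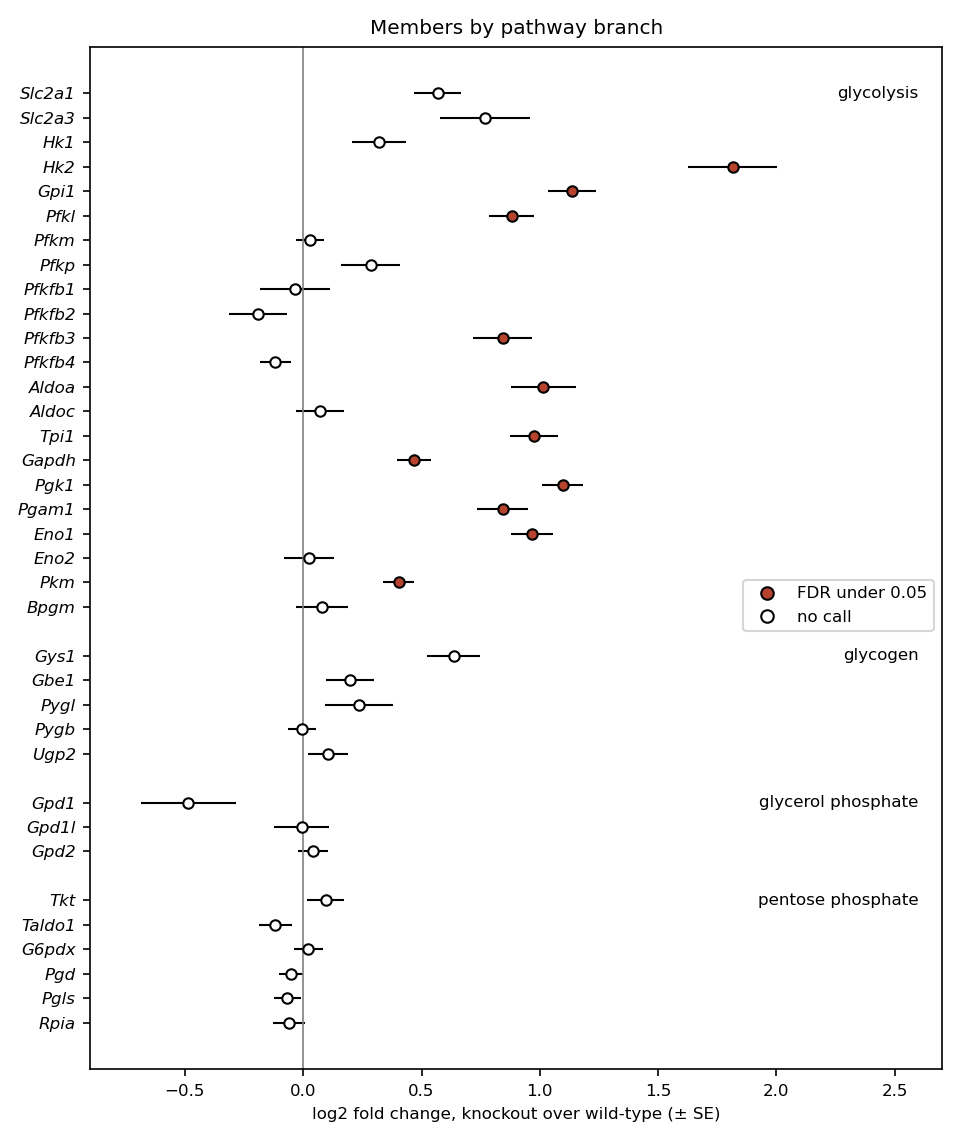
The log2 fold change of each of the 36 genes, knockout over wild-type, with its standard error from edgeR (3 libraries per group). Filled points passed a false discovery rate of 0.05; all 11 are in the glycolysis branch, from 0.40 (Pkm) to 1.82 (Hk2), while the 6 pentose phosphate genes lie between -0.12 and 0.10.

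The DNA just upstream of these genes is given as a description, and a shared cause of the calls was not tested. RefSeq start sites on GRCm38.p6 gave promoter windows for 34 of the 36 genes, and each window was read over the 250 bases before the start. The letters searched were ACGTG and GCGTG on both strands, the core of the response element bound by hypoxia-inducible factors. CACGTG, an E-box, holds ACGTG on both strands and was counted on each. ACGTG was found in 8 of 17 windows of the called genes, in 10 of 36 windows of the genes not called, and in 16.6% of all 32851 windows. Windows of 1 gene can overlap and share a match, as for Aldoa. Counted by gene, 6 of 11 called genes, 8 of 23 genes not called and 4998 of all 27025 genes had ACGTG in at least 1 window. GCGTG was found in 7 of 17 windows of the called genes, in 21 of 36 windows of the genes not called and in 28.2% of all windows. Windows of the genes not called thus also exceeded all windows, at 27.8% for ACGTG and 58.3% for GCGTG. The set of all windows was not matched to these genes in base composition or expression. In the pentose phosphate genes, ACGTG was in 0 of 7 windows and GCGTG in 6 of 7. The sequences below are from the 5 called genes with the lowest p among those with 1 listed start site, and from Taldo1, the pentose phosphate gene with the lowest p under the same limit. Each is written 5′ to 3′ along its gene, and capitals mark ACGTG or GCGTG or their reverse complements. The windows are chrX:106186850-106187099 on the plus strand for Pgk1, chr7:34230337-34230586 on the minus strand for Gpi1 and chr6:124814159-124814408 on the minus strand for Tpi1. They are chr10:78009808-78010057 on the minus strand for Pfkl, chr6:82774455-82774704 on the minus strand for Hk2 and chr7:141391910-141392159 on the plus strand for Taldo1.
Pgk1: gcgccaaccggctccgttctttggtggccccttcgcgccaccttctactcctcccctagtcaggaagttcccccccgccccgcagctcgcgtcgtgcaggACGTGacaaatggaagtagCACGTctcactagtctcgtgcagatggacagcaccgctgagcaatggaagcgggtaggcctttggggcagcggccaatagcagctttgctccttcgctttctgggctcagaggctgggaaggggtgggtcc
Gpi1: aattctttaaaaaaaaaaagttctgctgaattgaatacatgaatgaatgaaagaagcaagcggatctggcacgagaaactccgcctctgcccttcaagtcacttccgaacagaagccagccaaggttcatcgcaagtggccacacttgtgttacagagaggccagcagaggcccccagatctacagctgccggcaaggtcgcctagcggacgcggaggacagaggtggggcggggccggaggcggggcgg
Tpi1: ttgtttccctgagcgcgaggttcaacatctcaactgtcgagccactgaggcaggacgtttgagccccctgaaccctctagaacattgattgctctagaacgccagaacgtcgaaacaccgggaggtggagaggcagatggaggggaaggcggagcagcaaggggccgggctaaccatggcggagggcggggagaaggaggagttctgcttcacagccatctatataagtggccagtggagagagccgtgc
Pfkl: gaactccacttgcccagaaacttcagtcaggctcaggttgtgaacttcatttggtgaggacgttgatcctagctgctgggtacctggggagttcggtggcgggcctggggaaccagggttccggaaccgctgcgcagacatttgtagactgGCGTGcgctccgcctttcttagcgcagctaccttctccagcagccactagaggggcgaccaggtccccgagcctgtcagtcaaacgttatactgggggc
Hk2: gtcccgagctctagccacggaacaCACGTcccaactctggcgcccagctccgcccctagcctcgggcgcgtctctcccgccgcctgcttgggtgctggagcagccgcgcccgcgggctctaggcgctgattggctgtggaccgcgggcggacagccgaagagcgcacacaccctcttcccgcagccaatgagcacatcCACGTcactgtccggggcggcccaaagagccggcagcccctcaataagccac
Taldo1: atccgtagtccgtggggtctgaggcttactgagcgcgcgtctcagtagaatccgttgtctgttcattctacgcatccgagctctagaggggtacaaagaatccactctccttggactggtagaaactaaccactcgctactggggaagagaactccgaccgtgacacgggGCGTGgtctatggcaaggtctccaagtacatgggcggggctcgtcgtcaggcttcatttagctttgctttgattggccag
The Pgk1 window held ACGTG beginning 150 and 131 bases before the start, on opposite strands. The Hk2 window held it at 226 and 52 bases. Pfkl and Taldo1 held GCGTG, at 99 and 80 bases before their starts. Gpi1 and Tpi1, which rose about as much as Pgk1, had neither motif in these windows. A match is a description of letters, and no binding was measured.

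Glucose uptake was represented by the transporters Slc2a1 and Slc2a3, and neither passed the test. Slc2a1, the transporter of the blood-brain barrier and of red cells, was measured at 105, 103 and 128 CPM in knockout libraries, against 67.6, 78.5 and 80.3 CPM in wild-type libraries, in replicate order here and below. All 3 knockout values lay above all 3 wild-type values. The log2 fold change was 0.57 (SE 0.0996, edgeR adjusted p = 0.0524), just outside the threshold. It did not pass in any of the 6 fits that left out 1 library (edgeR adjusted p = 0.0504 to 0.217), and it passed with no filter on low counts (edgeR adjusted p = 0.00395) and without the libraries with high epidermal markers (edgeR adjusted p = 0.0443). The authors' deposited table gave it an adjusted p of 4.58e-05. Slc2a3, the transporter of neurons, was at 83.2, 61.9 and 97.6 CPM in knockout and at 57.7, 42.6 and 42.3 CPM in wild-type libraries. Its groups did not overlap either, but knockout replicate 2 and wild-type replicate 1 were close to each other (log2 fold change 0.77, SE 0.189, edgeR adjusted p = 0.263). In the authors' deposited table its adjusted p was 0.00037.

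Hexokinases trap glucose in the cell as glucose 6-phosphate. Hk2, the hexokinase known for its response to low oxygen and to insulin, is on chromosome 6 (82725025 to 82774454 in GENCODE M21, GRCm38). Its level was 47.6, 43.6 and 64.9 CPM in knockout, against 11.5, 15.8 and 17.0 CPM in wild-type libraries. The lowest knockout value was well above the highest wild-type value. Hk2 rose 3.52-fold (log2 fold change 1.82, SE 0.189, edgeR adjusted p = 0.00752). The call was lost without wild-type replicate 2 (edgeR adjusted p = 0.0634, range over the 6 fits without 1 library 0.0106 to 0.0634) and with no filter on low counts (edgeR adjusted p = 0.0803). Hk1, the main hexokinase of brain, was at 216, 171 and 225 CPM in knockout and at 184, 153 and 154 CPM in wild-type libraries, so the groups overlapped (log2 fold change 0.32, SE 0.116).

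Gpi1, the isomerase that turns glucose 6-phosphate into fructose 6-phosphate (chromosome 7, 34201330 to 34230336), was at 382, 309 and 415 CPM in knockout. Wild-type libraries held 165, 169.5 and 168 CPM, a spread far smaller than the distance between the groups. Gpi1 rose 2.2-fold (log2 fold change 1.14, SE 0.102, edgeR adjusted p = 0.00182), and the call held with each library left out.

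Phosphofructokinase commits fructose 6-phosphate to glycolysis, and its 3 isozyme genes did not move alike. Pfkl, the liver-type subunit (chromosome 10, 77986947 to 78010083), was at 216, 173 and 224 CPM in knockout, against 115, 109 and 109 CPM in wild-type libraries. These groups were well apart. Pfkl rose 1.84-fold (log2 fold change 0.88, SE 0.0956, edgeR adjusted p = 0.00543). It was lost without wild-type replicate 2 (edgeR adjusted p = 0.0567, range over the 6 such fits 0.000620 to 0.0567). Pfkm, the muscle-type subunit, was at 133, 119 and 126 CPM in knockout and at 129, 120.4 and 121 CPM in wild-type libraries, which overlapped throughout (log2 fold change 0.029, SE 0.0597). Pfkp, the platelet-type subunit, was at 309, 336 and 409.7 CPM in knockout and at 247, 324 and 296 CPM in wild-type libraries. Its groups overlapped too (log2 fold change 0.28, SE 0.126, edgeR adjusted p = 0.630).

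The bifunctional Pfkfb enzymes make and degrade fructose 2,6-bisphosphate, the activator of phosphofructokinase, and Pfkfb3 has the strongest bias toward making it. Pfkfb3 (chromosome 2, 11471433 to 11554077) was at 146, 120.1 and 176 CPM in knockout, against 86.8, 81.0 and 78.8 CPM in wild-type libraries. All knockout values were above all wild-type values. Pfkfb3 rose 1.79-fold (log2 fold change 0.84, SE 0.124, edgeR adjusted p = 0.0261). That call held without knockout replicate 2 and was lost without knockout replicate 1 or 3 or any 1 wild-type replicate (edgeR adjusted p = 0.0677 to 0.182 in those 5 fits). It was also lost with no filter on low counts (edgeR adjusted p = 0.0623). The other family members did not pass. Pfkfb4 was at 25.5, 26.2 and 25.7 CPM in knockout and at 28.0, 26.7 and 29.3 CPM in wild-type libraries, with the knockout values below by little (log2 fold change -0.12, SE 0.0665, edgeR adjusted p = 0.711). Pfkfb2, the heart-type enzyme, was at 23.8, 30.7 and 25.8 CPM in knockout and at 26.1, 31.5 and 34.2 CPM in wild-type libraries. Pfkfb1, the liver-type enzyme, was scarce, at 2.78 to 3.06 CPM in knockout and 2.81 to 3.16 CPM in wild-type.

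Aldolase cleaves fructose 1,6-bisphosphate. Aldoa (chromosome 7, 126795234 to 126800751) was at 491, 356 and 508 CPM in knockout, against 249.6, 213 and 208 CPM in wild-type libraries. Knockout replicate 2 was the lowest of its group but above every wild-type library. Aldoa rose 2.02-fold (log2 fold change 1.01, SE 0.137, edgeR adjusted p = 0.0166). The call was lost without knockout replicate 1 or 3 or wild-type replicate 2 or 3 (edgeR adjusted p = 0.0796 to 0.126 in those 4 fits). GENCODE M21 gives the symbol to a second, adjacent gene model upstream, so the Aldoa count may hold reads of both. Aldoc, the aldolase of brain and of astrocytes in particular, was at 115, 95.4 and 109 CPM in knockout and at 86.7, 112 and 105 CPM in wild-type libraries. Its groups overlapped (log2 fold change 0.071, SE 0.103). Tpi1, which interconverts the triose phosphates (chromosome 6, 124810586 to 124814296), was at 481, 393 and 487 CPM in knockout, against 254, 221 and 217 CPM in wild-type libraries. Tpi1 rose 1.97-fold (log2 fold change 0.97, SE 0.10, edgeR adjusted p = 0.00421) and missed the threshold without knockout replicate 3 (edgeR adjusted p = 0.0514, range over the 6 such fits 0.00121 to 0.0514).

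Gapdh and Pgk1 act next, the first reducing NAD and the second making ATP. Gapdh (chromosome 6, 125161715 to 125166467) was at 1504, 1308 and 1470.2 CPM in knockout, against 1033, 1020.4 and 1038 CPM in wild-type libraries. This gene, widely used as a reference in expression assays, was the most abundant member per length and rose 1.39-fold (log2 fold change 0.47, SE 0.0721, edgeR adjusted p = 0.0274). The call was lost without knockout replicate 1 or 3 or wild-type replicate 2 or 3 (edgeR adjusted p = 0.162 to 0.272 in those 4 fits). Pgk1 (X chromosome, 106187100 to 106203699) was at 464, 387 and 473 CPM in knockout, against 217, 203 and 199.7 CPM in wild-type libraries. It had the lowest p of the 36 genes (log2 fold change 1.10, SE 0.0864, edgeR adjusted p = 0.00101), and the call held with each library left out.

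Pgam1, the phosphoglycerate mutase of brain (chromosome 19, 41911923 to 41918660), was at 206, 167 and 215 CPM in knockout, against 122, 101 and 105 CPM in wild-type libraries. It rose 1.79-fold (log2 fold change 0.84, SE 0.108, edgeR adjusted p = 0.0120). The call was lost without knockout replicate 1 or 3 or wild-type replicate 2 or 3 (edgeR adjusted p = 0.0675 to 0.103 in those 4 fits). Bpgm makes and removes 2,3-bisphosphoglycerate, chiefly in red cells. It was at 86.1, 70.8 and 86.6 CPM in knockout and at 88.4, 73.2 and 69.1 CPM in wild-type libraries, which overlapped (log2 fold change 0.078, SE 0.109). Its 3 highest libraries, knockout replicates 1 and 3 and wild-type replicate 1, were also the 3 with the highest summed erythroid markers. The part of that in its values was not tested.

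Enolase makes phosphoenolpyruvate. Eno1, the ubiquitous isozyme (chromosome 4, 150236721 to 150248879), was at 959, 803 and 994 CPM in knockout, against 489, 461 and 459 CPM in wild-type libraries. The groups were far apart, and Eno1 rose 1.96-fold (log2 fold change 0.97, SE 0.0886, edgeR adjusted p = 0.00212) with the call kept whichever library was left out. Eno2, the isozyme of neurons, was at 55.6, 50.5 and 62.5 CPM in knockout and at 58.2, 59.9 and 47.7 CPM in wild-type libraries, with overlapping groups (log2 fold change 0.024, SE 0.107). Pkm, the pyruvate kinase of brain and muscle (chromosome 9, 59656368 to 59679375), was at 1141, 1037 and 1125 CPM in knockout, against 856, 808 and 835 CPM in wild-type libraries. Pkm rose 1.32-fold (log2 fold change 0.40, SE 0.0662, edgeR adjusted p = 0.0372). It was lost without any 1 knockout replicate and without wild-type replicate 2 or 3 (edgeR adjusted p = 0.0594 to 0.328 in those 5 fits). The count covers both splice forms of the gene. Reads shared with near-identical copies are an uncertainty for Gapdh, Pgk1, Pgam1 and Eno1. Copies were looked up by symbol only for Eno1, Pgam1 and Pgk1, and those looked up held few reads. Copies of Gapdh and of the other called genes were not looked up. Eno1b had 21 to 37 counts in knockout and 11 to 16 in wild-type libraries. Pgam1-ps2 had 29 to 35 in knockout and 17 to 19 in wild-type. Pgk1-rs7 had 5 to 9 counts in knockout and 7 to 14 in wild-type libraries. The treatment of shared reads is not given, so these low counts do not show how many reads were shared.

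**Figure D2:**
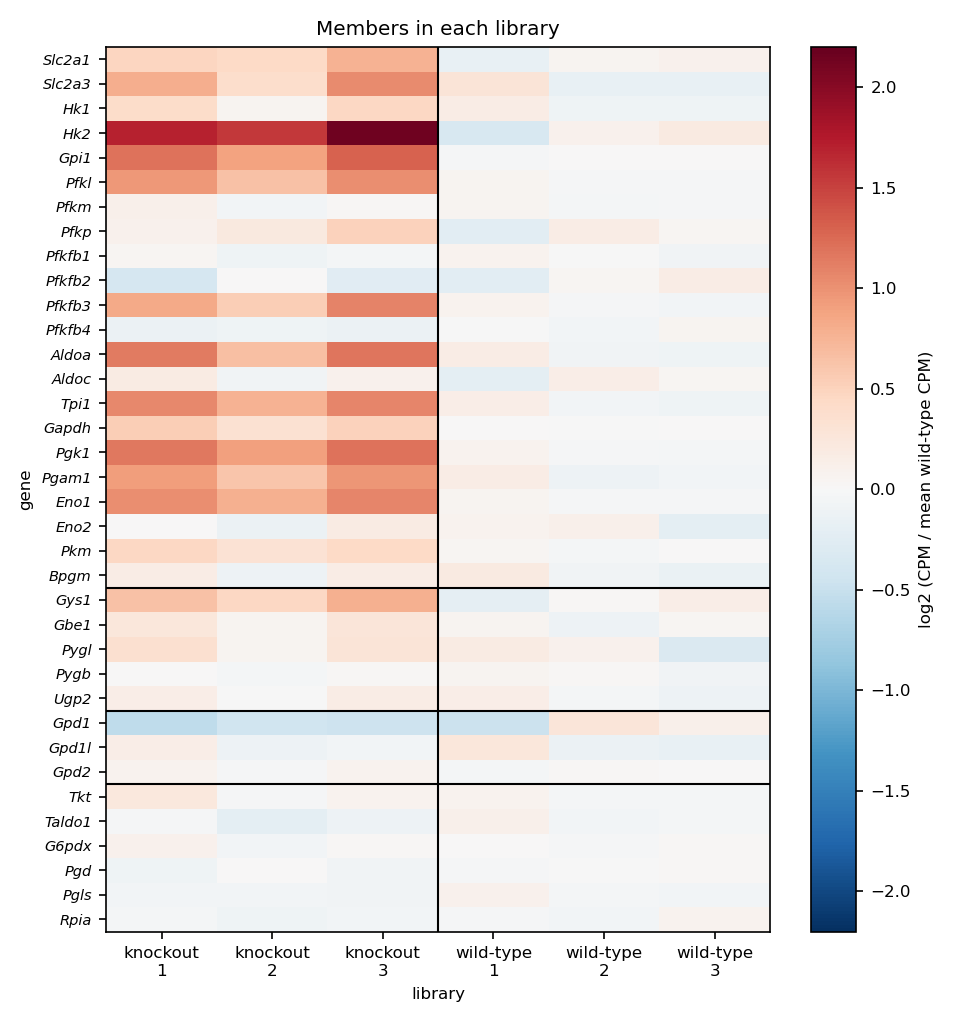
Colour gives the level of each gene in each library as log2 of its CPM over the mean wild-type CPM, with knockout libraries left of wild-type libraries and horizontal lines between branches. The called glycolysis genes are above the wild-type mean in all 3 knockout libraries, least so in knockout replicate 2.

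Per kilobase of exon, which allows levels of different genes to be compared, all 11 uptake and glycolysis steps had a higher summed level in every knockout than in every wild-type library. The exon length of a gene joins all annotated transcripts and so understates the level of genes with long rare exons. Hexokinase was the least abundant enzyme step in both groups, at 32.6 ± 5.04 CPM per kb in knockout and 21.6 ± 1.61 in wild-type (SD, n = 3 each). The isomerase Gpi1 came next, at 57.1 ± 8.37 CPM per kb in knockout and 26.0 ± 0.345 in wild-type. Gapdh stood at the other end, at 345 ± 25.5 CPM per kb in knockout and 249 ± 2.21 in wild-type. The ratio of mean summed levels, knockout over wild-type, was largest for Gpi1 (2.2), Pgk1 (2.14) and Tpi1 (1.97). It was smallest for the summed phosphofructokinases (1.26), Pkm (1.32) and Gapdh (1.39). The steps with the smallest ratios thus included both the commitment step and the last step.

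**Figure D3:**
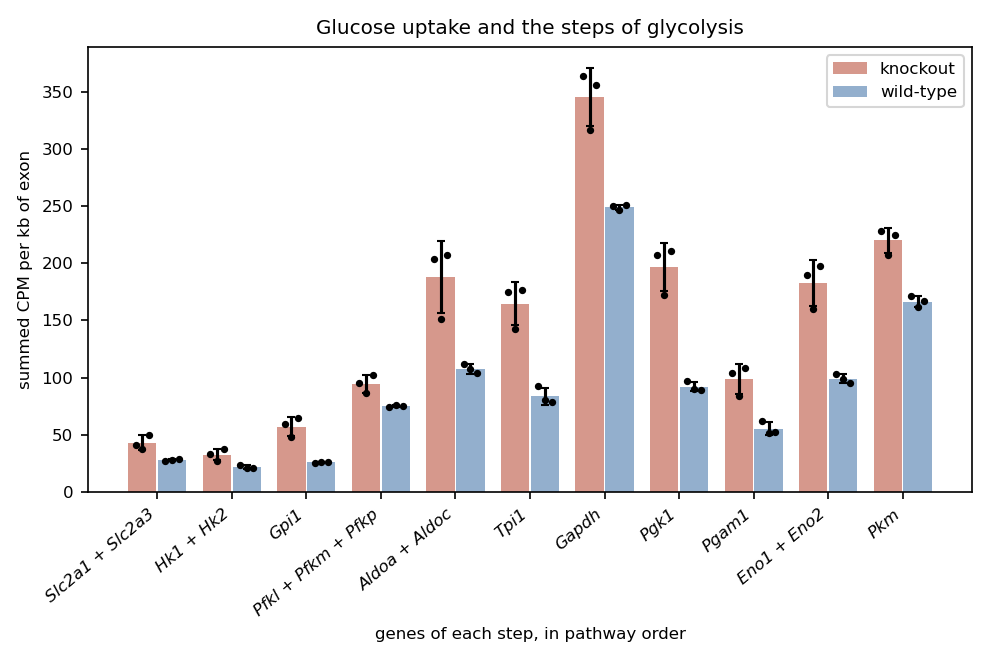
Summed level of the genes of each step in CPM per kb of exon, in pathway order, with knockout bars left of wild-type bars (mean, SD error bars, n = 3 each; dots are libraries). Knockout exceeds wild-type at each step, and the wild-type libraries lie close together.

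Within families the calls were uneven, and the ratio of isozymes within each library was compared between groups for 9 pairs. This ratio does not depend on how libraries are scaled. Each comparison used a two-sided exact permutation test, for which 0.1 is the smallest p with 3 libraries against 3, so none could pass 0.05. For 5 pairs the groups were completely separate (exact p = 0.1, adjusted over the 9 pairs 0.18). The log2 count ratio of Hk2 to Hk1 was -2.18, -1.97 and -1.79 in knockout, against -4.00, -3.27 and -3.18 in wild-type replicates 1, 2 and 3. Hk2 thus made up 26.6% ± 2.62 of the per-kilobase hexokinase level in knockout and 11.6% ± 2.94 in wild-type (SD, n = 3 each). The log2 ratio of Pfkl to Pfkm was 0.70, 0.54 and 0.83 in knockout, against -0.16, -0.15 and -0.15 in wild-type. Pfkl had fewer counts than Pfkm in every wild-type library and more in every knockout library, but its joined exon length is greater. Per kilobase, Pfkm stayed above Pfkl in every library. This order and the shares below depend on the joined lengths, 6.675 kb for Pfkl, 3.340 kb for Pfkm and 13.401 kb for Pfkp. By counts, Pfkp was the highest of the family in every library. In knockout libraries Pfkm made up 41.8%, 41.1% and 37.05% of the phosphofructokinase level, and Pfkl 34.0%, 29.9% and 33.0%. Aldoa over Aldoc was at 2.10, 1.90 and 2.22 in knockout, against 1.53, 0.93 and 0.99 in wild-type. Wild-type replicate 1 was nearer to the knockout values than the other wild-type libraries. Eno1 over Eno2 was at 4.11, 3.99 and 3.99 in knockout, against 3.07, 2.94 and 3.27 in wild-type. Eno2 made up 6.54% ± 0.285 of the per-kilobase enolase level in knockout, against 11.8% ± 1.16 in wild-type, and its own level overlapped between groups. Pfkfb3 over Pfkfb2 was at 2.62, 1.97 and 2.77 in knockout, against 1.73, 1.36 and 1.21 in wild-type.

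The other 4 ratios overlapped between groups. Slc2a1 over Slc2a3 differed by -0.19 on the log2 scale, knockout minus wild-type (exact permutation p = 0.5), with means of 0.49 ± 0.22 in knockout and 0.68 ± 0.39 in wild-type (SD, n = 3 each). Pfkp over Pfkm differed by 0.26 (exact permutation p = 0.3) and Pygl over Pygb by 0.25 (exact permutation p = 0.2). Gpd1 over Gpd1l differed by -0.45 (exact permutation p = 0.4). The pairs were listed with the calls known, so the separate ratios restate the edgeR calls of Hk2, Pfkl, Aldoa, Eno1 and Pfkfb3 and are no further evidence for them.

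**Figure D4:**
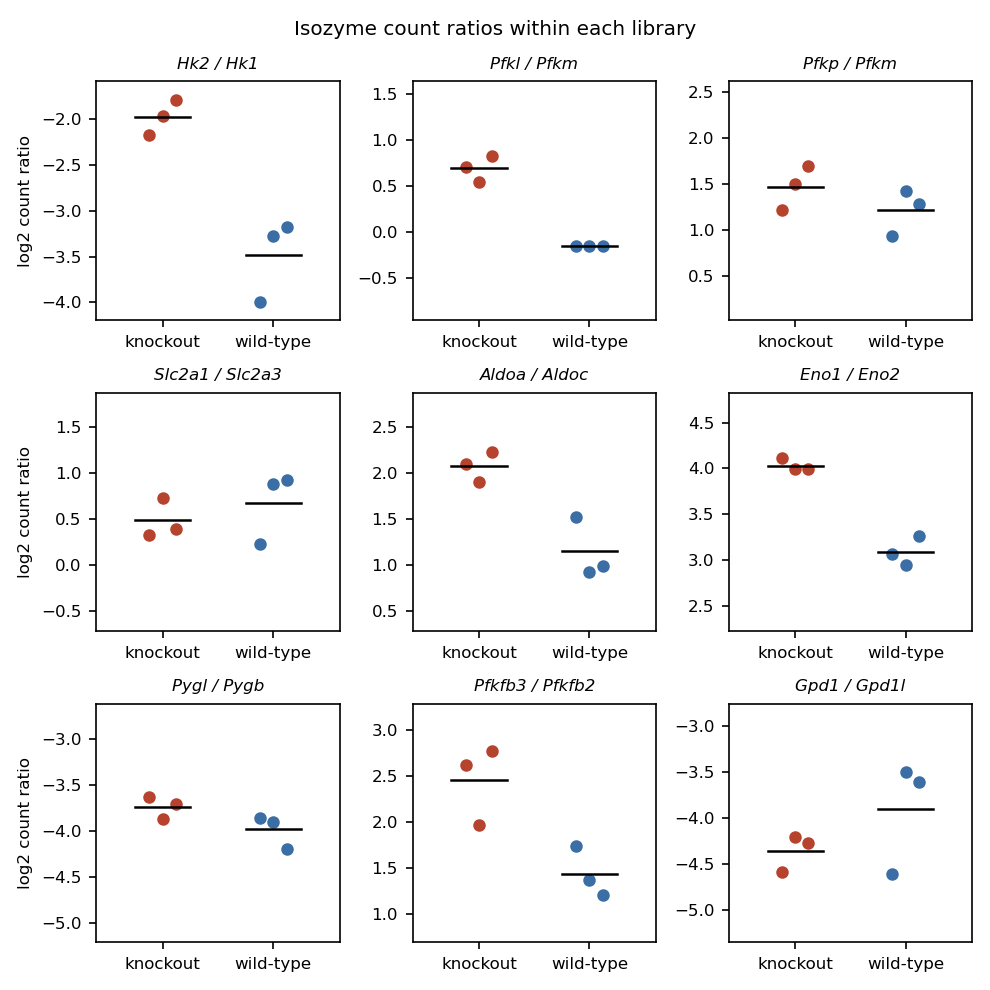
The log2 ratio of counts of 2 isozymes within each library, knockout left and wild-type right, with a line at the mean of 3; every panel spans the same range on the log2 scale. Groups are separate for Hk2/Hk1, Pfkl/Pfkm, Aldoa/Aldoc, Eno1/Eno2 and Pfkfb3/Pfkfb2 and overlap for the other 4 ratios.

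Of the glycogen genes, Gys1, the glycogen synthase outside liver, came closest to the threshold. It is on chromosome 7 (45434844 to 45456619) and was at 43.8, 38.4 and 48.0 CPM in knockout, against 24.3, 28.6 and 30.9 CPM in wild-type libraries. The groups did not overlap (log2 fold change 0.64, SE 0.111, edgeR adjusted p = 0.0522). Gys1 passed without knockout replicate 2 (edgeR adjusted p = 0.0493) and without wild-type replicate 1 (edgeR adjusted p = 0.0233), and its adjusted p reached 0.339 in the other fits that left out 1 library. Its adjusted p in the authors' deposited table was 2.73e-05. Gbe1, the branching enzyme, was at 13.5, 11.9 and 13.8 CPM in knockout and at 11.9, 10.5 and 11.8 CPM in wild-type libraries, with knockout replicate 2 level with the highest wild-type libraries (log2 fold change 0.20, SE 0.102). Ugp2, which makes the UDP-glucose that Gys1 uses, was at 59.2, 53.7 and 60.4 CPM in knockout and at 59.5, 52.1 and 49.6 CPM in wild-type libraries. Of the phosphorylases, Pygb, the brain form, was at 187, 181 and 188 CPM in knockout and at 193, 189 and 176 CPM in wild-type libraries. Pygl, the liver form, was at 15.1, 12.4 and 14.3 CPM in knockout and at 13.3, 12.6 and 9.54 CPM in wild-type libraries. Both overlapped between groups, and Pygb made up 95.0% ± 0.399 of the per-kilobase phosphorylase level in knockout and 95.8% ± 0.512 in wild-type (SD, n = 3 each).

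Glycerol phosphate dehydrogenases carry reducing power from glycolysis toward mitochondria and supply glycerol 3-phosphate for lipids. Gpd1, the cytosolic enzyme, was at 3.06, 3.33 and 3.30 CPM in knockout, against 3.25, 5.43 and 4.89 CPM in wild-type libraries. Wild-type replicate 1 lay within the knockout range, and the difference did not pass (log2 fold change -0.49, SE 0.201, edgeR adjusted p = 0.582). Gpd1l, its relative, was at 73.9, 61.9 and 64.0 CPM in knockout and at 79.5, 61.4 and 59.9 CPM in wild-type libraries. Gpd2, the mitochondrial enzyme, was at 38.5, 35.9 and 38.5 CPM in knockout and at 35.6, 37.4 and 36.8 CPM in wild-type libraries. Both overlapped between groups.

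Each pentose phosphate gene was at a similar level in knockout and wild-type libraries. G6pdx, which opens the oxidative arm and lies on the X chromosome, was at 60.4, 54.5 and 58.0 CPM in knockout and at 56.8, 55.7 and 57.9 CPM in wild-type libraries. Pgls, the lactonase, was at 68.4, 68.6 and 67.7 CPM in knockout and at 76.5, 69.2 and 68.7 CPM in wild-type libraries, with the lowest wild-type value just above the highest knockout value. Pgd, the second dehydrogenase, was at 98.9, 107 and 101 CPM in knockout and at 104, 106 and 107 CPM in wild-type libraries. In the other arm, Rpia, the ribose phosphate isomerase, was at 23.7 to 24.6 CPM in knockout and 24.3 to 26.5 CPM in wild-type. The transketolase Tkt was at 306, 256 and 275 CPM in knockout and at 276, 255 and 253 CPM in wild-type libraries. Taldo1, the transaldolase, was at 142, 124 and 134 CPM in knockout and at 156, 138 and 141 CPM in wild-type libraries. The 6 log2 fold changes ran from -0.12 (Taldo1, SE 0.0701, edgeR adjusted p = 0.726) to 0.095 (Tkt, SE 0.0775, edgeR adjusted p = 0.812).

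Other genes of the same pathways were counted for context. Of 75 listed, all in the table, 66 passed the low-count filter, and 2 rose and 0 fell, where 0.624% of all genes tested rose and 0.0358% fell. Their median log2 fold change was -0.028. Ppp1r3g, a glycogen-targeting subunit of protein phosphatase 1, was at 2.04, 1.87 and 2.65 CPM in knockout, against 0.654, 0.696 and 0.559 CPM in wild-type libraries. It rose 3.43-fold from a low level (log2 fold change 1.78, SE 0.230, edgeR adjusted p = 0.0123). Pgm2, a phosphoglucomutase gene, was at 56.0, 49.6 and 59.1 CPM in knockout, against 40.2, 32.3 and 33.2 CPM in wild-type libraries, and rose 1.56-fold (log2 fold change 0.64, SE 0.102, edgeR adjusted p = 0.0339). Phosphoglucomutases join glycogen to glycolysis. Both calls were lost without knockout replicate 1 or 3 or wild-type replicate 2 or 3 (edgeR adjusted p = 0.0540 to 0.279 over those fits).

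The number of the 36 genes called depended on which libraries were used, while the sizes changed little. With all libraries it was 11. Dropping knockout replicate 1, 2 or 3 gave 6, 11 or 5 calls, in that order. Dropping wild-type replicate 1, 2 or 3 gave 11, 4 or 6 calls. Over the 6 fits, the log2 fold changes of the 11 called genes stayed between 0.38 and 1.93. Leaving out the libraries with high epidermal markers gave 11 calls, of which 9 were among the 11, with Slc2a1 and Gys1 added and Pfkfb3 and Aldoa lost. Leaving out the libraries with high Hox expression left 1 wild-type library, taken to vary like the knockout libraries, and 1 call, Pgk1, with log2 fold changes of the 11 genes from 0.37 to 2.18. A term for embryo sex, which rests on wild-type replicate 2 alone, left 5. At an adjusted p of 0.05, 14 of the 36 genes were higher and 0 lower by the authors' deposited table, which called 1.22% of its 20564 genes with an adjusted p higher and 0.282% lower. These were the 11 and Slc2a1, Slc2a3 and Gys1. That table rests on the same libraries, so it is not independent evidence.

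**Figure D5:**
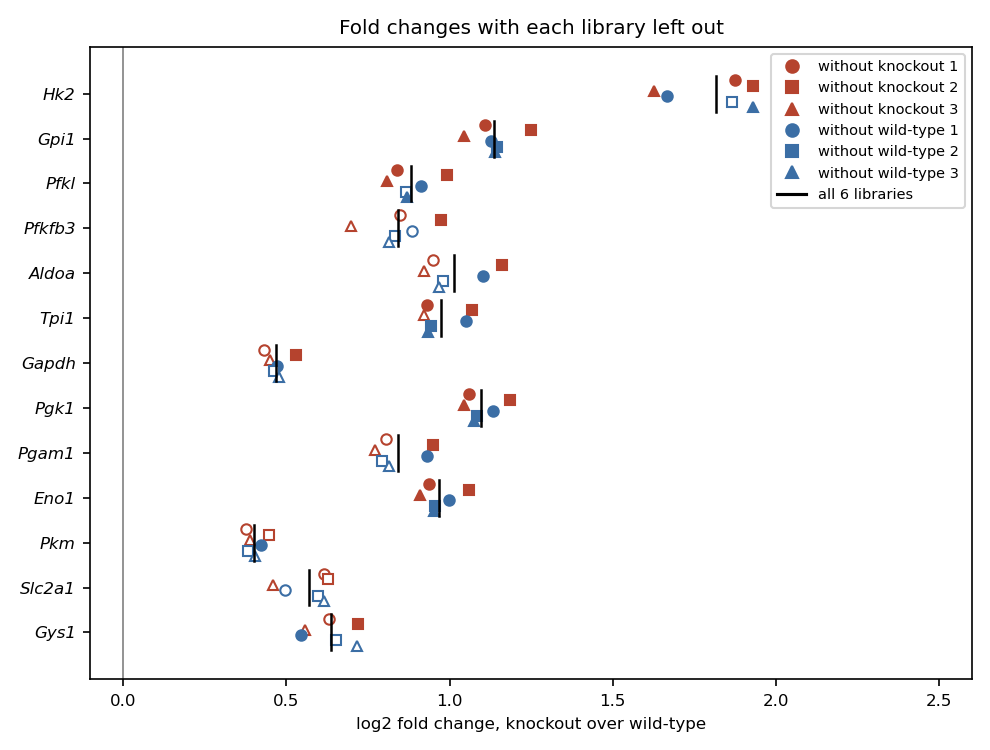
Log2 fold changes of the 11 called genes and of Slc2a1 and Gys1, the closest below the threshold, with each library left out in turn; filled symbols passed a false discovery rate of 0.05 in that fit and the black line is the value with all 6 libraries. Values stay positive throughout, and Gpi1, Pgk1 and Eno1 are filled in all 6 fits.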

How the data were processed

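Whole-brain RNA of 3 knockout and 3 wild-type E14.5 embryo samples was sequenced, per the labels. The authors deposited raw read counts per gene symbol, without normalization. Per the submitters' processing notes, the tools were STAR 2.5.2a, featureCounts and DESeq2 1.12.4, and mm10 and hg19 were listed as builds without saying what each served for. Strand setting, annotation release and treatment of shared reads: not given in the sources used here. Besides counts, the authors' table holds, per the file headers, a mean signal of normalized values, log2 fold changes, their standard errors and Wald statistics (used here as score columns), and p-values. Its sign is knockout over wild-type, as the counts show.

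From the counts, edgeR 4.0.16 kept genes by filterByExpr, scaled by TMM and ran the robust quasi-likelihood test over all 19565 genes with Benjamini-Hochberg adjustment at 0.05, in R 4.3.3. Isozyme ratios used log2 counts with 0.5 added. Exon lengths and positions came from GENCODE M21 (GRCm38), promoters from RefSeq. The common biological coefficient of variation was 15.3%, and no replicate pair agreed within sampling noise. The scripts were tested on simulated data.

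The members, lists, pairs and alternatives were chosen with earlier results of these data known. All 36 members are described; values per library are given for those called, those in an isozyme pair and the lowest p of each branch, and most others. Of the other pathway genes, those called are named. Alternatives were other scalings, filters, DESeq2 1.42.0, limma-voom (limma 3.58.1), a replicate block, a sex term, libraries left out and stricter thresholds.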

Additional observations from a re-analysis of the deposited data

How the results depend on the processing

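All 11 called members stayed called with DESeq2 size factors, upper-quartile factors, erythroid genes removed, a 1 CPM minimum, limma-voom, the DESeq2 Wald test and the replicate block. Removing the erythroid genes bears on scaling and adjustment only, not on red cell RNA in the member counts. With no low-count filter Hk2 and Pfkfb3 were lost. Over all genes, 129 calls became 211 with no low-count filter, 313 in the DESeq2 Wald test, 282 with the replicate block (212 higher, 70 lower), 37 with the sex term, 49 at an FDR of 0.01, 459 without the libraries with high epidermal markers, 20 without those with high Hox expression, and 36 to 388 without single libraries. Members called higher, all in glycolysis, went to 5 with the sex term, 1 without the Hox-expressing libraries and 6 at an FDR of 0.01. Without single libraries the count was 4 to 11, of which 4 to 10 were glycolysis genes. The glycogen count became 1 (Gys1) with no filter, in the DESeq2 Wald test, with the replicate block and without the epidermal libraries, and was 0 to 1 without single libraries. The other pathway genes went to 0 with the sex term, at an FDR of 0.01 and without the Hox-expressing libraries, and to 0 to 4 without single libraries. The causes were not tested, although fits without libraries hold fewer samples.

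Signs turned only among members not called. Without the Hox-expressing libraries log2 values were -0.029 for Pfkm, 0.041 for Pfkfb2, -0.047 for Eno2, -0.12 for Bpgm and -0.039 for Ugp2. The isozyme differences Slc2a1 over Slc2a3 and Gpd1 over Gpd1l became 0.26 and 0.25 there. Without the epidermal libraries the gene log2 fold changes were -0.086 for Aldoc, 0.021 for Pygb, 0.055 for Gpd1l and -0.012 for G6pdx. Pygb was 0.0030 with no filter and 0.0057 with the sex term. Gpd1l was 0.00097 with no filter, 0.0016 in limma-voom and 0.00044 with the replicate block. Without single libraries the ranges were -0.010 to 0.071 for Pfkm, -0.074 to 0.0076 for Pfkfb1, -0.027 to 0.15 for Aldoc, -0.070 to 0.098 for Eno2, -0.043 to 0.025 for Pygb, -0.088 to 0.14 for Gpd1l and -0.013 to 0.062 for G6pdx.

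Replicate numbers were not taken to pair the samples: deviations of same-numbered libraries correlated at 0.59, 0.31 and 0.034 for numbers 1, 2 and 3, and the best match of knockout replicate 2 was wild-type replicate 3 (0.48). With the replicate block 13 members were higher, Slc2a1 and Gys1 being added.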

Other observations

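Knockout replicate 2 had the lowest level of the 3 knockout libraries for all 11 called genes, and knockout replicate 3 the highest for 9 of them. Knockout replicate 2 was also the lowest for 19 of the 25 genes not called. Among wild-type libraries, replicate 1 was the highest for 8 of the 11 called genes and for 13 of the 25 others. Knockout replicate 2 had the lowest summed erythroid markers of the knockout libraries, at 1793 CPM against 3549 and 3624 CPM, and wild-type replicate 1 the highest of the wild-type libraries, at 2492 CPM against 1172 and 1269 CPM. The part of this in the gene levels was not tested.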
